A study of Homo sapiens with 6 samples.

Results

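Respiratory complex III (cytochrome bc1) passes electrons from reduced coenzyme Q to cytochrome c and moves protons out of the mitochondrial matrix. ATP synthase (complex V) lets protons flow back through a rotating ring in the inner membrane and makes ATP in its F1 head. Both complexes are built from nuclear-encoded subunits, translated on cytosolic ribosomes and imported, and from a few subunits encoded in mitochondrial DNA (mtDNA) and translated on mitochondrial ribosomes. This account covers 39 genes, 17 of complex III and its carrier cytochrome c and 22 of ATP synthase, taken by symbol from a table of 19330 transcripts. All 39 were found in the table and all 39 passed the filter on low counts. Of these, 3 were mtDNA-encoded (MT-CYB in complex III, MT-ATP6 and MT-ATP8 in ATP synthase) and 36 were nuclear. Older symbols are kept as the table gives them, with the current symbol beside ATP synthase genes that have been renamed.

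The samples were ribosome profiles (Ribo-Seq) of K562, an established line from a chronic myelogenous leukemia. Every library came from cells carrying the lentiviral Cas9 vector pLentiCRISPRv2, put under puromycin for 48 h and kept until 10 days after infection. In the 3 sgN6AMT1 libraries the guide target was N6AMT1, which encodes a methyltransferase whose substrates include the release factor eRF1. In the 3 sgCtrl libraries the guides were directed at olfactory receptor genes, OR11A1 and a gene given as OR2M49 in the labels and as OR2M4 in the study's methods, and which library carried which guide is not given in the sources used here. Both groups therefore shared the line, vector, nuclease and selection, and each was a transduced pool of cells. The study describes its replicates as separate lentiviral infections, so p-values measure the spread between infections of 1 line. Its methods list more than 1 guide for N6AMT1 and for the controls, so differences between guides may be part of that spread. Ribosome profiling counts the mRNA fragments that ribosomes protect from nuclease. A change in a footprint count can come from the amount of an mRNA or from the ribosomes on each mRNA, and the 2 cannot be told apart in these libraries.

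Library totals ran from 1821356 to 2969736 footprints. Libraries of 1 group differed from each other by a chi-square per degree of freedom of 1.25 to 1.68, and libraries of different groups by at least 4.89. N6AMT1 (chromosome 21) had 25, 24 and 34 footprints in the control libraries and 10, 9 and 8 in the sgN6AMT1 libraries, and its log2 fold change was -1.51 (SE 0.313, adjusted p = 6.69e-05). Of 10 K562 and erythroid markers all were measured, led by HBG2 and HBG1 at 9920 and 9553 CPM (footprint counts scaled to the TMM-adjusted library size) in sgCtrl. Among markers of other cell types, MS4A1 was at 0 counts in every library, CD3E and COL3A1 had at most 4, PECAM1 at most 8, ALB at most 10 and COL1A1 at most 23. EPCAM, the exception, had 322 to 522 counts. Of the 10 erythroid markers, 5 were lower in sgN6AMT1 (LMO2, -1.44, KLF1, -0.37, TFRC, -0.33, GATA1, -0.29, and HBZ, -0.27, as log2 fold changes) and 2 were higher (HBE1 and TAL1, both 0.48). Their part in the results below was not tested.

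The mtDNA-encoded members sit on compact genes, and their boundaries bear on how footprints were assigned. MT-ATP8 and MT-ATP6 share 1 mRNA and overlap by 46 bases in different reading frames, so footprints there can belong to either. The stretch below, GRCh38 chrM:8507-8592 on the plus strand, shows the start codon of MT-ATP6 and, downstream of it, the stop codon of MT-ATP8 in capitals. In 28-base windows, 10.6% of those in MT-ATP8 and 2.9% of those in MT-ATP6 were identical to one in the other gene.
MT-ATP8 and MT-ATP6 overlap: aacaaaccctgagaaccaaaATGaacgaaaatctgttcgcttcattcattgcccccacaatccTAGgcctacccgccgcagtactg
MT-ATP6 (chrM:8527-9207) ends where MT-CO3 begins, with the last base of its stop codon as the first base of the next start codon. The capitals in the stretch below (chrM:9187-9227, plus strand) mark the joined stop and start.
MT-ATP6 and MT-CO3 junction: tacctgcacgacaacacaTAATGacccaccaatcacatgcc
MT-CYB (chrM:14747-15887, plus strand, 1 exon, 1141 bases) ends in the genome with an incomplete stop codon. Its last 31 bases (chrM:15857-15887) are shown with the single T of that codon in capitals, since polyadenylation of the mRNA completes it.
MT-CYB end: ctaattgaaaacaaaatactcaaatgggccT

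Of the 39 members, 10 were lower and 4 were higher in sgN6AMT1 than in sgCtrl at an edgeR adjusted p below 0.05, and 25 did not pass. Over all 9202 genes tested, 13.9% were lower and 12.9% were higher. Lower calls were thus made for a larger part of the members than of all genes and higher calls for about the same part, with no test of that difference. The members were not matched to all genes in depth. With only genes at a mean of at least 50 counts, 9 of 36 members were lower and 6 higher. Over the 5874 genes tested there, 1006 were lower and 967 higher. The median log2 fold change of the members was -0.06, beside 0.01 over all genes. The 3 libraries of one group did not overlap those of the other for 13 lower and 6 higher members, beside 19.2% lower and 18.4% higher over all genes. Under DESeq2, 9 members were lower and 0 higher (beside 6.86% and 5.43% of the genes with an adjusted p), and 3 members were higher there at an unadjusted p below 0.05, compared with 6 in edgeR. With library totals in place of TMM factors, 9 members were lower and 6 higher, and over all genes 976 were lower and 1560 higher, compared with 1282 and 1191. In complex III 3 of 17 members were lower and 2 higher, and in ATP synthase 7 of 22 were lower and 2 higher.

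**Figure D1:**
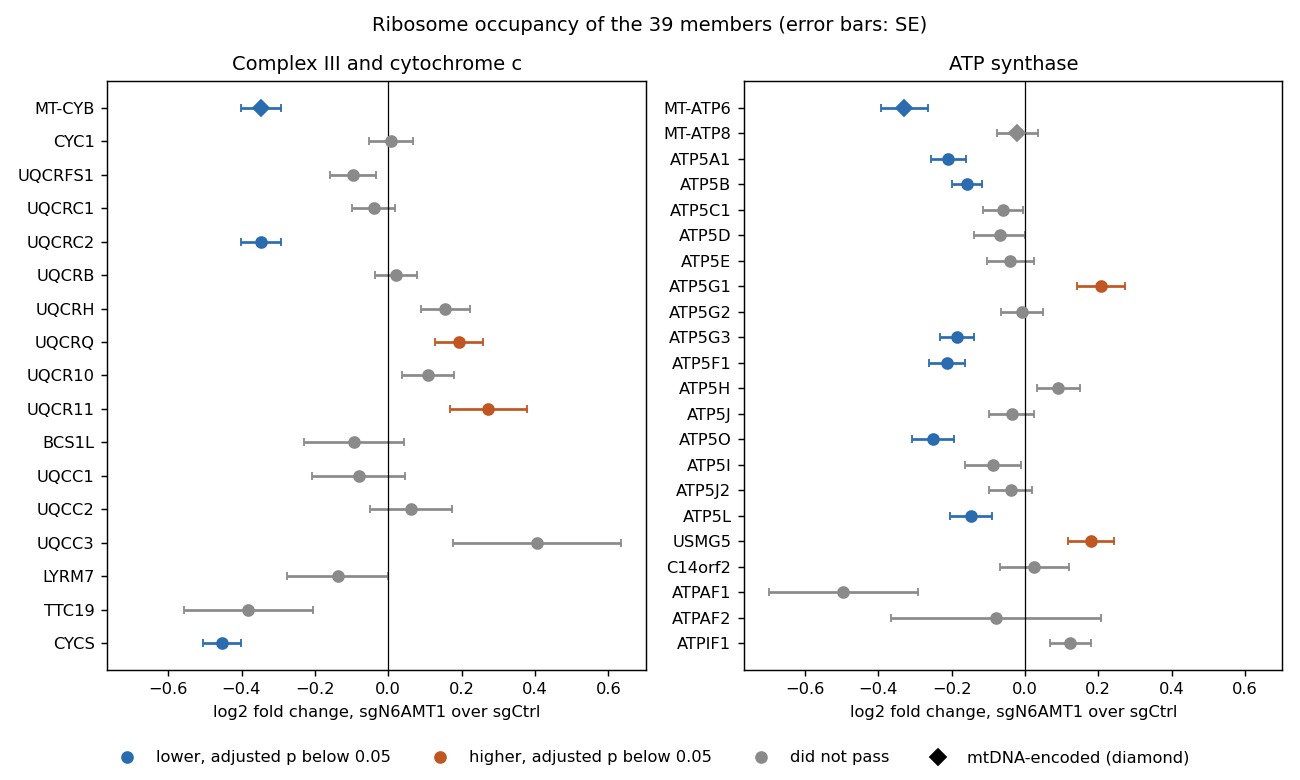
Log2 fold change of ribosome footprints, sgN6AMT1 over sgCtrl, on the horizontal axis for each of the 39 members by complex, with the standard error of the edgeR fit as bars and 3 libraries in each group. Blue points passed the test as lower (10), orange as higher (4) and grey did not pass (25). Diamonds are the mtDNA-encoded MT-CYB, MT-ATP6 and MT-ATP8.

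Cytochrome b, the mtDNA-encoded subunit that carries the b hemes and the quinone sites of complex III, was lower in sgN6AMT1. MT-CYB had 688, 609 and 618 CPM in sgCtrl and 516, 479 and 507 CPM in sgN6AMT1. Every sgN6AMT1 library was below every sgCtrl library. The mean fell by 21.4%, from 638 ± 43.3 to 501 ± 19.2 CPM (SD, n = 3 and 3), with a log2 fold change of -0.35 (SE 0.0539, adjusted p = 1.38e-07).

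Among the 9 nuclear subunits of complex III, 1 was lower, 2 were higher and 6 did not pass, with a median log2 fold change of 0.02. The lower one was UQCRC2, a core subunit of the matrix-facing part of the complex. UQCRC2 (GRCh38 chr16:21953361-21983660, plus strand, 14 exons) had 521, 529 and 548 CPM in sgCtrl and 440, 398 and 420 CPM in sgN6AMT1, with no overlap. Its log2 fold change was -0.35 (SE 0.055, adjusted p = 2.48e-07), and it passed under all 17 alternatives. The other core subunit, UQCRC1, had a log2 fold change of -0.04 (SE 0.0585) and did not pass. The subunits that carry electrons did not pass either. For the cytochrome c1 gene CYC1 the log2 fold change was 0.01 (SE 0.0601). For the Rieske iron-sulfur protein gene UQCRFS1 it was -0.10 (SE 0.0638, adjusted p = 0.277), although its groups did not overlap.

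The higher subunits were both small ones without redox centers. UQCRQ (GRCh38 chr5:132866646-132867683, plus strand, 2 exons) had 242, 225 and 250 CPM in sgCtrl and 285, 255 and 277 CPM in sgN6AMT1, with no overlap and a log2 fold change of 0.19 (SE 0.0649, adjusted p = 0.0177). UQCR11 (GRCh38 chr19:1598922-1605473, minus strand, 2 exons) had 81.9, 67.2 and 74.4 CPM in sgCtrl and 79.3, 97.6 and 91.2 CPM in sgN6AMT1. The UQCR11 groups overlapped, and the log2 fold change was 0.27 (SE 0.105, adjusted p = 0.0422). Both calls were lost under DESeq2, without sgCtrl library 2 and without sgN6AMT1 library 3. The UQCRQ call was also lost without sgN6AMT1 library 1, and the UQCR11 call without sgCtrl library 3 or sgN6AMT1 library 2. The whole coding sequence (CDS) of UQCR11, all 144 of its 28-base windows, was also present in the transcript listed as AC005943.2, so the footprints of the 2 entries cannot be separated. AC005943.2 had a log2 fold change of 0.38 (adjusted p = 0.00344). The remaining small subunits had log2 fold changes of 0.02 (UQCRB), 0.16 (UQCRH, a hinge protein, adjusted p = 0.0755) and 0.11 (UQCR10) and did not pass. UQCRH shared 36.9% of its windows with UQCRHL, and with the 2 entries summed it passed at a log2 fold change of 0.13, as it did alone at 0.25 without sgN6AMT1 library 1. UQCRH alone also passed with library totals only (0.21) and with a mean of at least 50 counts (0.18).

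Cytochrome c, the soluble carrier between complexes III and IV and a trigger of apoptosis once released, was lower by more than any other member that passed. CYCS (GRCh38 chr7:25123444-25125260, minus strand, 4 exons) had 783, 876 and 829 CPM in sgCtrl and 606, 628 and 585 CPM in sgN6AMT1. The sgN6AMT1 values all lay below the lowest sgCtrl value. The mean fell by 27%, from 829 ± 46.3 to 606 ± 21.5 CPM, with a log2 fold change of -0.45 (SE 0.0512, adjusted p = 3.77e-12), and CYCS passed under all 17 alternatives. Per length, CYCS had the highest footprint density of the nuclear complex III members, 2608 ± 146 CPM per kb of CDS in sgCtrl and 1906 ± 67.7 in sgN6AMT1.

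None of the 6 assembly factors of complex III passed the test in edgeR, and 1 of the 6 had an unadjusted p below 0.05. That one was TTC19, which helps clear fragments of the Rieske protein, with 22.6, 27.6 and 25.6 CPM in sgCtrl and 18.4, 20.3 and 20.1 CPM in sgN6AMT1. The TTC19 groups did not overlap, and the log2 fold change was -0.38 (SE 0.176, adjusted p = 0.099). UQCC3, which takes part in cytochrome b assembly, had 11, 13.1 and 8.87 CPM in sgCtrl and 16.7, 13.8 and 14.1 CPM in sgN6AMT1. Its values did not overlap either, with a log2 fold change of 0.41 (SE 0.23, adjusted p = 0.194). The others had log2 fold changes of -0.08 (UQCC1) and 0.06 (UQCC2), which act on cytochrome b, and -0.09 (BCS1L) and -0.14 (LYRM7), which serve the insertion of the Rieske protein. Assembly factors were measured with fewer footprints than subunits, and their SEs ran from 0.112 to 0.23.

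ATP6 and ATP8, the mtDNA-encoded subunits of the membrane part of ATP synthase, gave different readings although a single mRNA carries both. MT-ATP6, whose product forms the proton path beside the c-ring, had 368, 306 and 309 CPM in sgCtrl and 259, 245 and 277 CPM in sgN6AMT1. The groups did not overlap, and the mean fell by 20.4%, from 327 ± 35.1 to 260 ± 16 CPM, with a log2 fold change of -0.33 (SE 0.0647, adjusted p = 2.66e-05). MT-ATP8 (chrM:8366-8572, plus strand) had 653, 733 and 650 CPM in sgCtrl and 740, 670 and 596 CPM in sgN6AMT1. The MT-ATP8 groups overlapped and the log2 fold change was -0.02 (SE 0.0554, adjusted p = 0.822). MT-ATP6 took 36, 29.4 and 32.2% of the footprints on the pair in sgCtrl and 25.9, 26.8 and 31.7% in sgN6AMT1, and these shares overlapped between the groups. Footprint density was far higher on MT-ATP8, at 3277 ± 227 CPM per kb of CDS in sgCtrl, than on MT-ATP6, at 481 ± 51.5.

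Of the 17 nuclear subunits of ATP synthase, 6 were lower, 2 were higher and 9 did not pass, and the median log2 fold change was -0.06. In the F1 head the subunits alpha and beta, which form the catalytic ring, were lower. ATP5A1 (now ATP5F1A, alpha, chr18:46084144-46104233, minus strand, 13 exons) had 929, 987 and 960 CPM in sgCtrl and 846, 815 and 831 CPM in sgN6AMT1, and its log2 fold change was -0.21 (SE 0.0483, adjusted p = 0.000381). ATP5B (ATP5F1B, beta, chr12:56638175-56645984, minus strand, 10 exons), which holds the catalytic sites, had 2896, 3090 and 3028 CPM in sgCtrl and 2727, 2667 and 2686 CPM in sgN6AMT1, and its log2 fold change was -0.16 (SE 0.0417, adjusted p = 0.00194). Neither gene's groups overlapped. The central stalk subunits did not pass, with log2 fold changes of -0.06 (ATP5C1, ATP5F1C, gamma), -0.07 (ATP5D, ATP5F1D, delta) and -0.04 (ATP5E, ATP5F1E, epsilon). ATP5E shared 41.1% of its windows with ATP5EP2, and with the 2 summed the sign turned to 0.06.

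In the peripheral stalk, which keeps F1 from turning with the ring, 2 of 4 subunits were lower. ATP5F1 (ATP5PB, subunit b, chr1:111449464-111462773, plus strand, 7 exons) had 970, 1018 and 1003 CPM in sgCtrl and 897, 834 and 852 CPM in sgN6AMT1, and its log2 fold change was -0.21 (SE 0.0483, adjusted p = 0.0003). ATP5O (ATP5PO, the oligomycin sensitivity-conferring protein) had 419, 424 and 423 CPM in sgCtrl and 363, 347 and 354 CPM in sgN6AMT1, and its log2 fold change was -0.25 (SE 0.0568, adjusted p = 0.000283). Both sets of values were separated between the groups. ATP5O lies on chromosome 21 (GRCh38 chr21:33903453-33915804), as N6AMT1 does. Of the 88 chromosome 21 genes tested, 38 were lower and 2 higher, with a median log2 fold change of -0.26, and the part of this in the ATP5O result was not tested. The other member on that chromosome, ATP5J (ATP5PF, F6, chr21:25716503-25735027), did not pass, with a log2 fold change of -0.04 (SE 0.0625). ATP5H (ATP5PD, subunit d) also did not pass, at 0.09 (SE 0.0594), although its groups did not overlap.

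Among the small membrane subunits, which lie where ATP synthase dimers bend the inner membrane, 1 of 5 was lower, 1 higher and 3 did not pass. ATP5L (ATP5MG, subunit g, chr11:118401606-118409847, plus strand, 3 exons) had 399, 410 and 428 CPM in sgCtrl and 377, 366 and 374 CPM in sgN6AMT1, and its log2 fold change was -0.15 (SE 0.0568, adjusted p = 0.0434). This call was near the threshold and was made in 7 of 17 alternatives, being lost without sgCtrl library 2 or 3 or sgN6AMT1 library 2 or 3, and 22.1% of the windows of ATP5L were shared with ATP5L2. USMG5 (ATP5MK, also called DAPIT, chr10:103389050-103396466, minus strand, 5 exons) had 280, 302 and 311 CPM in sgCtrl and 366, 331 and 313 CPM in sgN6AMT1, and its log2 fold change was 0.18 (SE 0.0617, adjusted p = 0.0205). The groups of both genes were separated, for USMG5 narrowly, at 311.1 and 313.2 CPM. The USMG5 call was lost under DESeq2 and without library 1 or 2 of either group. The others had log2 fold changes of -0.09 (ATP5I, ATP5ME, subunit e), -0.04 (ATP5J2, ATP5MF, subunit f) and 0.03 (C14orf2, ATP5MJ). ATP5J2 shared 30.7% of its windows with ATP5J2-PTCD1, and with the 2 summed its log2 fold change was -0.02.

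Neither assembly factor of F1 passed in edgeR, and 1 of the 2 had an unadjusted p below 0.05. ATPAF1, a chaperone of beta, had 18.1, 21.7 and 18.7 CPM in sgCtrl and 14.9, 11.7 and 15.7 CPM in sgN6AMT1, with no overlap and a log2 fold change of -0.50 (SE 0.204, adjusted p = 0.061). ATPAF2, a chaperone of alpha, had a log2 fold change of -0.08 (SE 0.287). ATPIF1 (ATP5IF1), the inhibitor that blocks ATP hydrolysis when the proton gradient collapses, had 425, 433 and 416 CPM in sgCtrl and 466, 476 and 446 CPM in sgN6AMT1. Its groups did not overlap, and its log2 fold change of 0.12 (SE 0.0552) had an adjusted p of 0.0858. ATPIF1 passed with library totals only (0.18) and with a mean of at least 50 counts (0.15), and in no other alternative.

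**Figure D2:**
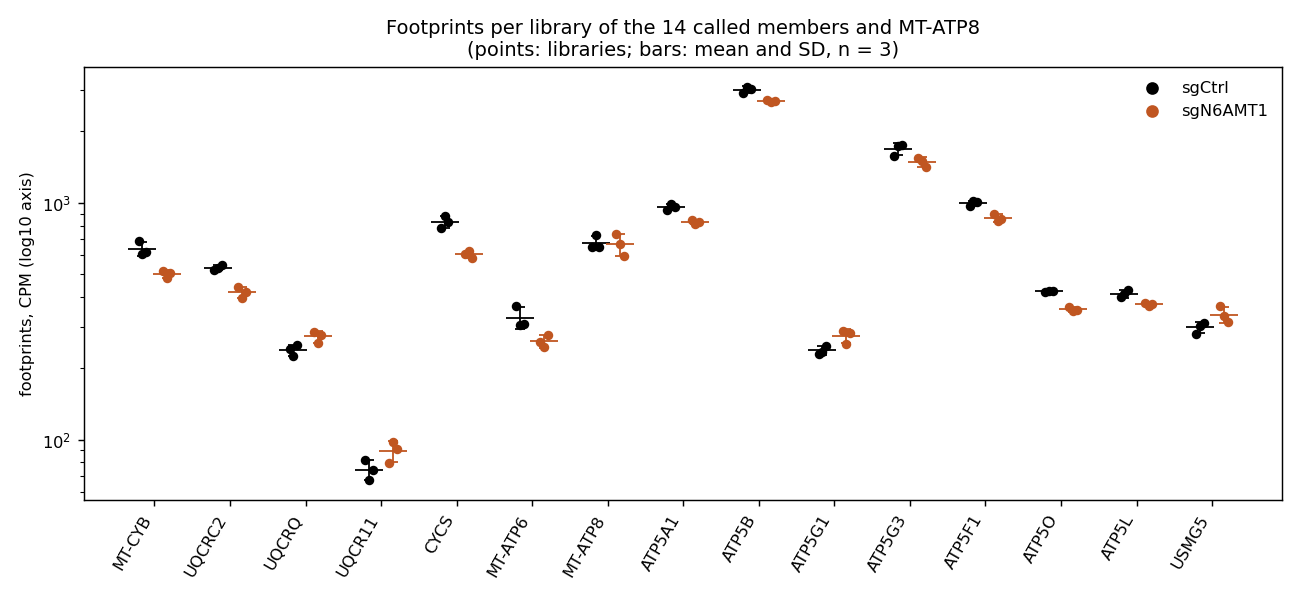
Footprints in CPM (vertical log10 axis) of the 14 members that passed the test and of MT-ATP8, with 1 point for each library, black for sgCtrl and orange for sgN6AMT1, and bars for the mean and SD of 3 libraries. Groups are separated for all of these genes except UQCR11 and MT-ATP8.

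The c-ring, which turns as protons pass, is made of a single mature protein encoded by 3 nuclear genes, and these genes did not move together. Their coding sequences differ at many synonymous positions, which lets footprints be assigned. The first 40 codons of the longest stretch that encodes the same residues in all 3 genes are printed below. They are from GENCODE transcripts on GRCh38 (chromosomes 17, 12 and 2 in that order). Capitals mark bases that are not the same in all 3 genes.
ATP5G1: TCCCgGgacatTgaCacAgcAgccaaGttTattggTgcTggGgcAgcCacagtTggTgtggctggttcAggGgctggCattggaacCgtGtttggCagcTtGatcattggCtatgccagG
ATP5G2: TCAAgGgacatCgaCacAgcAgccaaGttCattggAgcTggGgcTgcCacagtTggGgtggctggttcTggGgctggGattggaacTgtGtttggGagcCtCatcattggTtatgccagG
ATP5G3: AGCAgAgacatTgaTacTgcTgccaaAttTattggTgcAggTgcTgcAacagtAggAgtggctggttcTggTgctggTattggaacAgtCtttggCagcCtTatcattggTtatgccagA
Over the 234 bases of this stretch, stop codon included, ATP5G1 and ATP5G2 were identical at 88.5% and ATP5G3 at 79.9% with each of them. The longest run without a difference was 17 bases, and no 28-base window of any of these coding sequences occurred in another listed transcript.

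ATP5G3 (ATP5MC3, chr2:175178145-175181663, minus strand, 4 exons) was lower and ATP5G1 (ATP5MC1, chr17:48892787-48895871, plus strand, 5 exons) higher. ATP5G3 had 1577, 1737 and 1752 CPM in sgCtrl and 1550, 1495 and 1412 CPM in sgN6AMT1, and its log2 fold change was -0.18 (SE 0.0458, adjusted p = 0.000979). It had the highest footprint density of all members with a matched CDS, 3936 ± 226 CPM per kb in sgCtrl and 3463 ± 162 in sgN6AMT1. ATP5G1 had 230, 235 and 249 CPM in sgCtrl and 288, 254 and 283 CPM in sgN6AMT1, and its log2 fold change was 0.21 (SE 0.0648, adjusted p = 0.0102). The groups of both genes were separated. The ATP5G1 call was lost under DESeq2, with trends on CDS length and GC content removed together, and without sgCtrl library 1, sgCtrl library 2 or sgN6AMT1 library 1. ATP5G2 (ATP5MC2) had a log2 fold change of -0.01 (SE 0.0574) and did not pass. Of the footprints on the 3 genes, ATP5G1 took 10.5, 9.94 and 10.3% in sgCtrl and 13, 11.8 and 13.4% in sgN6AMT1, while ATP5G3 took 72.1, 73.5 and 72.5% and then 70, 69.7 and 67%. Neither gene's shares overlapped between the groups. The sum of the 3 was 2323 ± 120 CPM in sgCtrl and 2155 ± 54 in sgN6AMT1, and these sums overlapped.

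**Figure D3:**
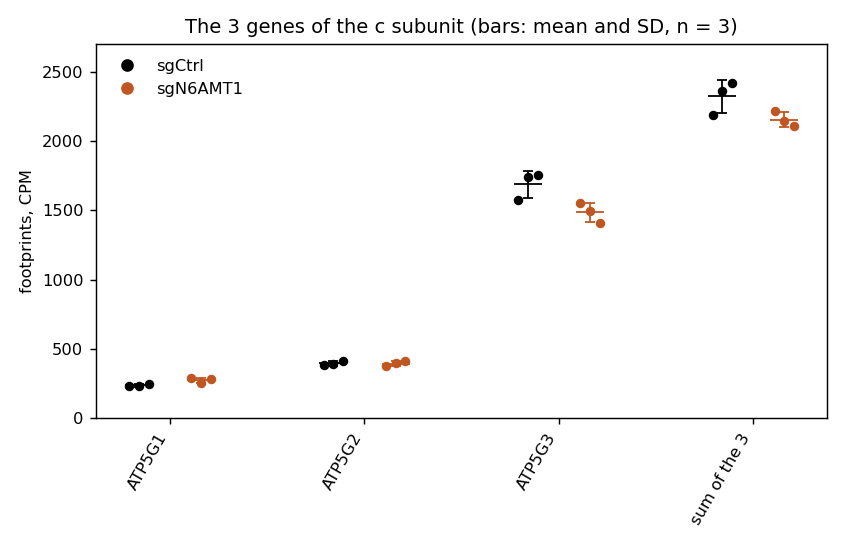
Footprints in CPM (linear axis from 0) on the 3 genes of the c subunit and on their sum, 1 point for each library, with the mean and SD of 3 libraries as bars. ATP5G3 carries most of the footprints, from 67 to 73.5% in every library, and the sums of the groups overlap.

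The mtDNA-encoded subunits were set against the nuclear subunits of their own complex by shares of footprints, which do not depend on library scaling. MT-CYB took 20.9, 19.3 and 19% of the footprints on complex III subunits in sgCtrl and 16.9, 15.8 and 16.5% in sgN6AMT1. These shares did not overlap, and their ratio was -0.27 on the log2 scale. It was -0.38 when each gene was first divided by its CDS length, which left out UQCR10 because it has no matched CDS. The 9 nuclear subunits of complex III together had 2595 ± 38.6 CPM in sgCtrl and 2551 ± 18.3 in sgN6AMT1, and these sums overlapped. In complex III the mtDNA-encoded subunit was thus lower beside a nuclear sum whose groups were not separated. That sum joined subunits of both directions, with log2 fold changes of -0.35 for UQCRC2, as for MT-CYB, 0.19 for UQCRQ and 0.27 for UQCR11. With trends on CDS length and GC content removed, UQCRC2 (-0.38), UQCRFS1 (-0.22) and UQCRC1 (-0.14) were lower, as was MT-CYB (-0.40). No complex III member was higher there.

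In ATP synthase the picture was mixed on both sides. MT-ATP6 took 3.24, 2.55 and 2.6% of subunit footprints in sgCtrl and 2.32, 2.3 and 2.62% in sgN6AMT1, and these shares overlapped. MT-ATP8 took 5.74, 6.13 and 5.48% and then 6.63, 6.3 and 5.64%, which also overlapped. Both together took 8.58 ± 0.45% in sgCtrl and 8.6 ± 0.34% in sgN6AMT1. The 17 nuclear subunits had 10342, 10922 and 10891 CPM in sgCtrl and 10162, 9723 and 9695 CPM in sgN6AMT1. Their sums did not overlap and had a log2 ratio of -0.12. The share on MT-ATP6 alone had a log2 ratio of -0.21, and without sgCtrl library 1, whose share was the highest, it was -0.10.

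**Figure D4:**
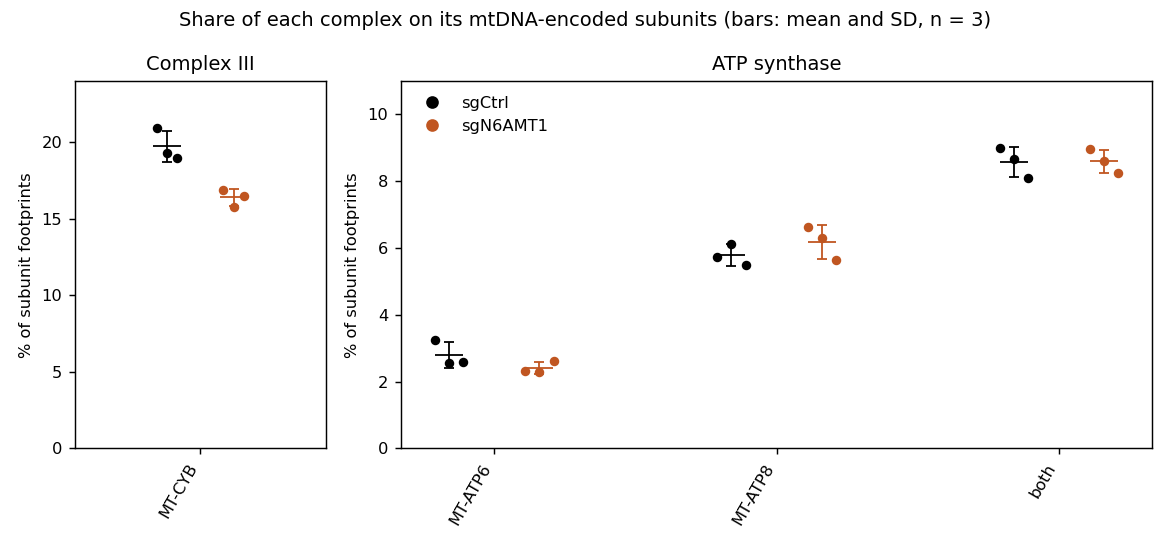
Percent of the subunit footprints of each complex that lay on its mtDNA-encoded subunits (vertical axes from 0), 1 point for each library, with the mean and SD of 3 libraries. The share of MT-CYB in complex III is 19 to 20.9% in sgCtrl and 15.8 to 16.9% in sgN6AMT1, and the shares of MT-ATP6, MT-ATP8 and both together overlap between the groups.

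Among the 13 mtDNA-encoded open reading frames (ORFs), MT-CYB took 9.47 ± 0.62% of footprints in sgCtrl and 7.76 ± 0.16% in sgN6AMT1, and MT-ATP6 took 4.85 ± 0.44% and 4.04 ± 0.26%. Neither overlapped between the groups, although the MT-ATP6 shares did once each ORF was divided by its length. MT-ATP8 took 10.1 ± 0.64% and 10.4 ± 0.92%, which overlapped. Of the 10 other ORFs, 4 were lower (MT-ND2, MT-ND4, MT-CO2 and MT-CO3, with log2 fold changes of -0.38, -0.21, -0.34 and -0.48), 1 was higher (MT-CO1, 0.34) and 5 did not pass. Of those 5, MT-ND6 had the largest log2 fold change, 0.84 (SE 0.233, adjusted p = 0.0691), with means of 160 CPM in sgCtrl and 292 CPM in sgN6AMT1. It passed in 6 of 16 alternatives: DESeq2, a mean of at least 50 counts, the replicate block, and without sgCtrl library 2, sgN6AMT1 library 1 or sgN6AMT1 library 2. The MT-ND4 call was lost without sgN6AMT1 library 2. The 13 ORFs together had 6744 ± 394 CPM in sgCtrl and 6453 ± 328 in sgN6AMT1, which overlapped. The lysis buffer held cycloheximide, which arrests cytosolic ribosomes and not mitochondrial ones.

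Footprint density in sgCtrl followed the roles of the members. Among subunits it ran from 242 ± 3.07 CPM per kb of CDS for UQCRC1 to 3936 for ATP5G3. Assembly factors with a matched CDS lay lower without exception, from 9.36 ± 1.86 for ATPAF2 to 174 ± 17.8 for UQCC2. By each listed entry alone, the order from the top was ATP5G3, MT-ATP8, CYCS and ATP5B (1890 ± 62.1). ATP5E (1691 ± 134) and USMG5 (1682 ± 89.2) followed and did not differ beyond their spread. Footprints on other entries that share sequence with a member were not added. ATP5EP2, which shared windows with ATP5E, had 281, 495 and 336 footprints in sgCtrl. ATP5E itself had 477, 801 and 559 there, so its place in the order is not settled. In complex III subunits the highest by its own entry was UQCRQ, at 960 ± 51, and MT-CYB lay at 559 ± 37.9. UQCRHL, which shared windows with UQCRH, had 628, 951 and 602 footprints in sgCtrl. UQCRH itself had 505, 657 and 508 there, so whether UQCRQ or UQCRH was the highest is not settled. UQCR10 and ATPAF1 have no density here because their listed transcripts could not be matched.

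The direction of a member's change went with the length of its CDS. Of the 9 members with a CDS of at most 300 bases, 0 were lower and 3 higher (UQCRQ, UQCR11 and USMG5) in edgeR. Of the 15 with a CDS over 600 bases, 7 were lower and 0 higher, and between the limits 3 of 13 were lower and 1 was higher. Across the 37 members with a CDS length, Spearman's rho between length and log2 fold change was -0.56 and Pearson's r with log2 length was -0.52. Over 8607 tested genes with a length rho was -0.13. Of the 164 tested genes of at most 300 bases, 6.1% were lower and 25.6% higher. Between the limits 12.9% were lower and 17.3% higher, and over 600 bases 14.1% were lower and 12% higher. The points share the 6 libraries and the fit, and genes are not replicates, so no p is given. With each library's smooth trends on length and GC content of the CDS removed, 17 of 37 members were lower and 0 higher (1 at an unadjusted p below 0.05), beside 17.7% lower and 11.5% higher over all 8607 genes so treated. The median of the members was then -0.15, beside -0.03 over all genes. The fitted trends also took out each library's mean level. The median over the 8607 genes was 0.01 before removal, and the part of that shift in the member calls was not tested. MT-CYB, MT-ATP6, UQCRC2, CYCS, ATP5A1, ATP5B, ATP5G3, ATP5F1, ATP5O and ATP5L remained lower, and the 4 higher members had log2 fold changes of 0.06 (UQCRQ), 0.10 (UQCR11), 0.06 (ATP5G1) and 0.11 (USMG5), none of which passed. The added lower members were UQCRFS1, UQCRC1 and TTC19 in complex III and ATP5E, ATP5G2, ATP5I and ATP5J2 in ATP synthase.

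**Figure D5:**
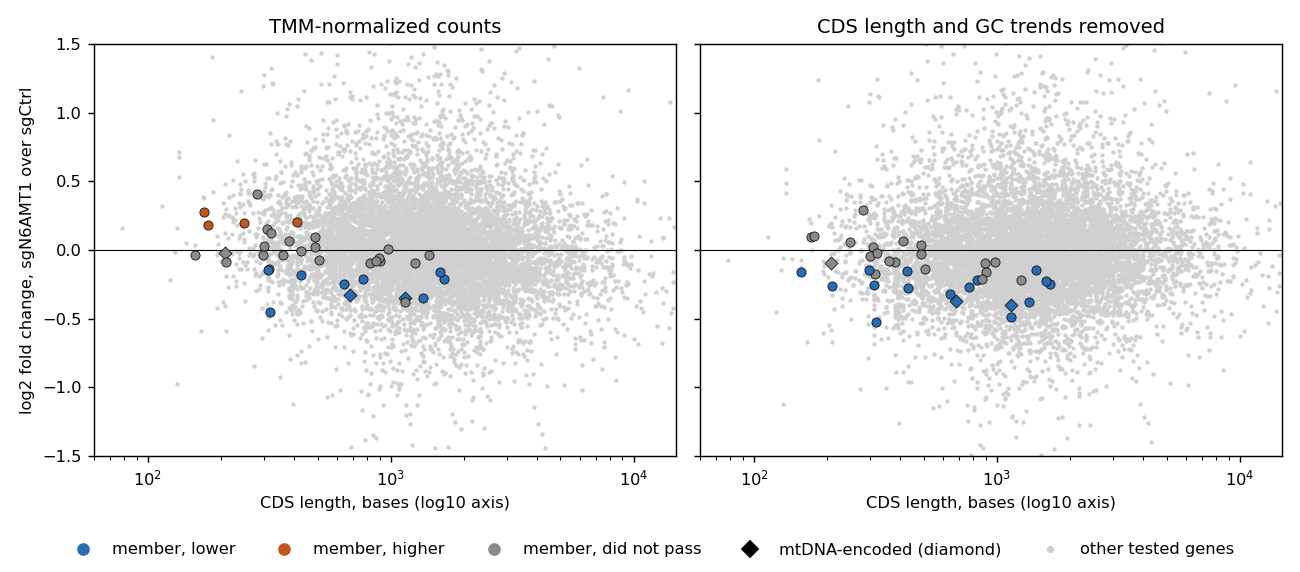
Log2 fold change, sgN6AMT1 over sgCtrl, against CDS length in bases (log10 axis), with members in color and other tested genes in light grey, before (left) and after (right) removal of trends on length and GC content; genes beyond the axis limits are not drawn. On the left 10 members are lower and 4 higher, the latter with a CDS of at most 300 bases for 3 and of 411 bases for ATP5G1. On the right 17 are lower and 0 higher.

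Promoters were searched because nuclear respiratory genes are known targets of nuclear respiratory factor 1 (NRF1). The motif GCATGCGC, or its reverse complement GCGCATGC on the same strand, occurred in 6 of the 29 nuclear-member promoters found in the RefSeq table, 20.7%, beside 3.27% of 27305 promoters of the same length. Those were UQCC2, CYCS, ATP5C1, ATP5G2, ATP5J and ATP5I. Among these 6 genes, CYCS was lower and the others did not pass. The 27305 promoters were not matched to the members in expression or base composition, and the difference in share was not tested.

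The nuclear subunits of the other respiratory complexes gave a background of mixed direction. Of 36 nuclear subunits of complex I, 5 were lower and 9 higher, with a median log2 fold change of 0.02. Of 12 in complex IV, 1 was lower (COX5A, -0.20) and 4 higher (COX6A1, 0.26, COX6C, 0.22, COX7A2, 0.15, and COX8A, 0.30), with a median of 0.09. The COX5A call was lost under DESeq2, with library totals only, and without sgCtrl library 3 or sgN6AMT1 library 2, and COX7A2 passed in 9 of 17 alternatives, being lost without library 1 or 2 of either group. With trends removed, 4 complex IV subunits were lower and 1 higher, and 10 of complex I were lower. In complex I, NDUFA1, NDUFA13, NDUFB3, NDUFB4, NDUFB6, NDUFC2, NDUFS4 and NDUFV2 remained higher with trends removed. In complex II, 2 of 4 subunits were lower (SDHA, -0.19, and SDHD, -0.31), and the SDHA call was lost under DESeq2, with library totals only, and without library 2 of either group. In coenzyme Q synthesis, which makes the electron donor of complex III, 2 of 12 tested genes were lower (COQ2, -0.87, and COQ4, -0.56). Neither passed under DESeq2. The COQ2 call was also lost without sgCtrl library 2 or sgN6AMT1 library 3, and the COQ4 call without sgN6AMT1 library 2. Of 13 further factors of complexes III and V, SLC25A5, an ADP/ATP carrier of the inner membrane, and OXA1L, an inner-membrane insertase, were lower at -0.18 and -0.19. SLC25A5 passed in all 17 alternatives, but OXA1L (adjusted p = 0.0473) in 7, being lost under DESeq2 and limma-voom, among others, and without sgCtrl library 1 or 3 or sgN6AMT1 library 1 or 2. TMEM70 and TMEM242, which act in c-ring assembly, were higher at 0.26 and 0.61, with the TMEM70 call lost under DESeq2, with trends removed, and without library 2 of either group. Of 8 genes of cristae organization, OPA1, a fusion GTPase of the inner membrane, was lower at -0.37. The values named for these lists are log2 fold changes at an edgeR adjusted p below 0.05.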

How the data were processed

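The deposited table held whole-number footprint counts per transcript, 1 column for each of the 6 libraries. Per the study's methods the authors trimmed adapters (cutadapt), mapped reads to GRCh38 (HISAT2), removed rRNA and tRNA reads, mapped the rest to 1 transcript per gene (bowtie2) and summed P-sites over each CDS (riboWaltz). They also counted overlaps with gene annotation, and which of these the table holds is not given in the sources used here. No molecular identifiers were described, and the share of duplicate reads in the counts was not tested. Libraries of 1 group differed by more than counting error alone gives, at a chi-square per degree of freedom of 1.25 to 1.68.

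Counts were tested here with edgeR 4.0.16 (R 4.3.3): filterByExpr (minimum 10), TMM factors, robust quasi-likelihood F test, 2-sided, Benjamini-Hochberg adjustment over 9202 genes, threshold 0.05. The 10128 genes removed held 0.465% of counts. Fold changes are given on the log2 scale as sgN6AMT1 over sgCtrl, and the SE is from the F statistic. Alternatives were DESeq2 1.42.0, limma-voom (limma 3.58.1), other scaling factors, other filters, loess offsets (span 0.5) on CDS length and GC content, a replicate block and each library left out. Summing entries that share sequence was an alternative chosen after seeing the data. Steps were tested on simulated data. Transcripts were matched by identifier to GENCODE 44 (17687 of 19330, 91.5%), for 37 members. UQCR10 and ATPAF1 took their location by symbol. The transcript listed for UQCRH is annotated there as nonsense-mediated decay. Promoters came from RefSeq.

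The members and lists were chosen with earlier results of these data known. Values in every library are given for mtDNA-encoded members, members that passed, the nuclear member of each complex with the highest density, and, chosen after their values were seen, TTC19, UQCC3, ATPAF1 and ATPIF1. MT-ND6 was also named after its values were seen. 1 marker of another cell type is not reported here.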

Additional observations from a re-analysis of the deposited data

How the results depend on the processing

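Of the 10 lower members, 9 passed in every alternative that could test them, ATP5L being the exception, and 0 of the 4 higher members did. Of the 25 others, 16 passed in no alternative. DESeq2 called 1324 genes, 739 lower and 585 higher. With library totals only, 976 genes were lower and 1560 higher, and 9 members were lower and 6 higher. That scaling moved the median of all genes to 0.06. Higher calls in complex III numbered 0 under DESeq2, 1 with no filter and 0 with trends removed, and 0 to 2 with a library left out. In ATP synthase they numbered 0 under DESeq2 and with trends removed, and 0 to 2 with a library left out. Without sgCtrl library 2 there were 0 in both complexes. Lower calls numbered 6 and 11 with trends removed. The MT-CYB share had a log2 ratio of -0.38 per CDS length, with UQCR10 left out. The joint share of MT-ATP6 and MT-ATP8 ran from -0.0375 to 0.0372 on the log2 scale with a library left out. No alternative turned the sign of a member that passed. The causes of these differences were not tested.

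The replicate numbers did not pair the samples: correlations of same-numbered libraries were -0.06, 0.02 and 0.02. With the replicate block 2390 genes passed, and ATP5L was the member whose call was lost.

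Signs turned only for members that did not pass. CYC1 became -0.0019 under DESeq2, -0.0031 with no filter and -0.0856 with trends removed, where UQCRB became -0.0257, UQCC2 -0.0854, C14orf2 -0.0416 and ATPIF1 -0.0235. With library totals only, UQCRC1 became 0.015, MT-ATP8 0.0335, ATP5E 0.0152, ATP5G2 0.0466, ATP5J 0.0182 and ATP5J2 0.0158. With upper-quartile factors ATP5G2 became 0.005. With a mean of at least 50 counts, MT-ATP8 became 0.0042 and ATP5G2 0.0174. MT-ATP8 was 0.0413 as a share of the mtDNA-encoded ORFs, and ATP5E 0.0633 with copies summed. With a library left out, values ran from -0.0437 to 0.0446 for CYC1, -0.0062 to 0.0375 for UQCRB, -0.0357 to 0.118 for UQCC2, -0.101 to 0.0476 for MT-ATP8, -0.0411 to 0.0265 for ATP5G2, -0.105 to 0.0043 for ATP5J, -0.0661 to 0.079 for C14orf2 and -0.249 to 0.129 for ATPAF2. SEs of the complex III assembly factors ran from 0.112 to 0.23.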
